A study of Homo sapiens with 16 samples.

Results

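PIP4K2B knockdown was compared with vector in U2OS cells, a human sarcoma cell line, 6 h after ultraviolet C light (UV). The comparison rests on 4 of the 16 libraries of the series, 2 of the PIP4K2B knockdown after UV and 2 of the vector after UV, taken by their titles. Total RNA was depleted of ribosomal RNA, and reads per gene were given as RSEM expected counts. The PIP4K2B knockdown cells carried a stable short hairpin RNA against PIP4K2B, and the vector cells carried plko.puro, the puromycin-selectable plasmid without a stated hairpin. Both were grown with puromycin, irradiated without medium at 30 J/m2 and returned to medium for 6 h. For contrast, the same lines untreated, and cells after UV with a hairpin against PIP4K2A (2A knockdown) or with hairpins against both genes (double knockdown), were used, each with 2 libraries.

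PIP4K2B encodes a type II phosphatidylinositol phosphate kinase, which adds a phosphate to phosphatidylinositol 5-phosphate to make phosphatidylinositol 4,5-bisphosphate. Its relatives are PIP4K2A and PIP4K2C, while the PIP5K enzymes make the same product from phosphatidylinositol 4-phosphate. A part of the PIP4K2B protein is found in the nucleus, where phosphatidylinositol 5-phosphate is bound by the PHD finger of the chromatin protein ING2. The stress kinase p38 is known to phosphorylate PIP4K2B after UV, and nuclear phosphatidylinositol 5-phosphate then rises.

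The PIP4K2B knockdown libraries held 36.0 and 31.9 M expected counts after UV, and the vector libraries 39.9 and 31.7 M. Of the 16 libraries, vector untreated replicate 1 stood apart with 1.28 M counts and 14.6% of them from mitochondrial genes, against 28.0 to 39.9 M and 2.20 to 3.43% in the other 15. It is no part of the UV comparison and was left out of the fit that estimates the spread, so the untreated vector group has 1 library. Its effect on the spread is given beside the counts of genes. Nothing states that the 2 libraries of a group came from separate cultures, and each line carries 1 named hairpin construct, so p-values cover just the spread among the sequenced libraries, which may be technical, and the loss of PIP4K2B cannot be told apart from other differences between the lines. A description field calls the knockdown cells wild type, whereas their title and genotype name the hairpin.

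The targeted gene was read first. PIP4K2B (ENSG00000276293, GRCh38 chr17:38765689-38800126, minus strand) stood at 14.5 and 15 CPM (counts scaled to the library total) in the knockdown and at 81.7 and 76.1 CPM in the vector libraries. The groups did not overlap, and the knockdown kept 18.7% of the vector level. The log2 fold change was -2.34 (SE 0.106; edgeR adjusted p = 9.72e-08). Per length, in TPM (transcripts scaled by gene length and library), it averaged 1.52 ± 0.0707 TPM in the knockdown and 7.63 ± 0.233 TPM in the vector (SD, n = 2 each). Its relative PIP4K2A had 43.2 and 44.5 CPM in the knockdown, against 51.5 and 55.8 CPM in the vector, a log2 difference of -0.21 (SE 0.0898) that did not pass (edgeR adjusted p = 0.123). PIP4K2C rose by 0.39 on the log2 scale (SE 0.0965; edgeR adjusted p = 0.0135), with 71.9 and 68.8 CPM in the knockdown and 56.5 and 56.9 CPM in the vector. Among the PIP5K genes, PIP5K1A rose by 0.25 on the log2 scale (SE 0.0789; edgeR adjusted p = 0.0455). Neither the PIP4K2C nor the PIP5K1A call held when libraries were scaled to ribosomal protein genes. Compared per length, PIP4K2C had the highest level of the 3 PIP4K genes in the knockdown, at 13.2 ± 0.368 TPM, and in the vector, at 10.4 ± 0.728 TPM (SD, n = 2 each). PIP4K2A stood at 8.14 ± 0.184 TPM in the knockdown and 8.06 ± 0.785 TPM in the vector, so PIP4K2A and PIP4K2B did not differ beyond their spread in the vector.

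**Figure D1:**
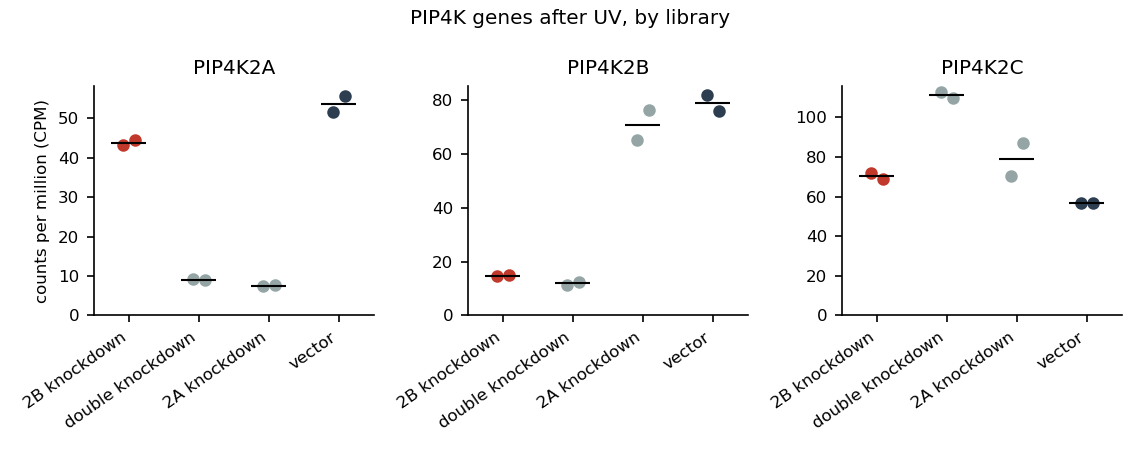
PIP4K2A, PIP4K2B and PIP4K2C in CPM after UV, in the 2B knockdown, double knockdown, 2A knockdown and vector, with points for libraries and bars for their means. PIP4K2B is low in both lines with its hairpin, at 14.5 and 15 CPM in the 2B knockdown, against 81.7 and 76.1 CPM in the vector.

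Across the transcriptome, 4288 of 22597 genes tested (19.0%) passed at an edgeR adjusted p under 0.05, of which 2413 (10.7%) were higher and 1875 (8.30%) lower in the knockdown. Changes over 2 fold made up 549 of the rises and 569 of the falls. Of the genes called, 3082 averaged at least 5 CPM over the 4 libraries. At this level every call went with groups that did not overlap, so the absence of overlap adds nothing to a call. Log2 CPM correlated at 0.997 between the knockdown libraries, 0.995 between the vector libraries and 0.970 to 0.974 between the groups across 12568 genes. Protein-coding genes were called in 23.6% of cases (2188 of 15314 higher, 14.3%, and 1428 lower, 9.32%), and their median log2 fold change was 0.05. Long intergenic RNA genes leaned the other way, with 79 higher, 149 lower and a median of -0.19 over 1639 genes. Among protein-coding genes, those spanning under 10 kb had 422 higher and 194 lower, while those spanning over 100 kb had 426 higher and 483 lower. The count of calls depended on which libraries set the spread. It was 3453 with only the 8 UV libraries and 127 when the divergent untreated library was added to the fit. Leaving out knockdown replicate 1 or 2 gave 2056 or 2357 calls, and leaving out vector replicate 1 or 2 gave 2176 or 2448. Scaling to ribosomal protein genes gave 2957 calls, 1416 higher and 1541 lower, so the balance of directions depends on the scaling.

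Among the largest rises was ANXA10, a gene of the annexin family, with 39.5 and 44.8 CPM in the knockdown and 0.777 and 0.505 CPM in the vector (log2 fold change 6.08, SE 0.31). FBLIM1, an adaptor that binds filamin at adhesions, had 13.7 and 12.7 CPM against 2.61 and 2.68 CPM in the vector (2.40, SE 0.14). DCHS2, a large protocadherin, had 105 and 103 CPM against 23.7 and 23.4 CPM in the vector (2.23, SE 0.0814). Every knockdown library lay above every vector library, which the choice of these genes required. LCP1, an actin-bundling plastin, rose by 2.18 (SE 0.121), CLDN1, which encodes a claudin of tight junctions, by 2.15 (SE 0.114), the secreted guidance gene SEMA3A by 2.11 (SE 0.141) and the tetraspanin gene CD82 by 1.99 (SE 0.187) on the log2 scale. GDF15, a stress-induced cytokine gene and p53 target, had 54.1 and 50.5 CPM in the knockdown and 11.4 and 12.8 CPM in the vector (2.19, SE 0.168). The dynactin subunit gene DCTN6 rose by 2.26 (SE 0.179). The histone gene H4C4 had the largest fitted rise under the naming rule, to 11.3 and 12.1 CPM in the knockdown against 0.125 and 0.126 CPM in the vector, but it has near-identical copies and its level is uncertain. Of the 30 largest changes 6, all of them rises, lie in stretches of neighbouring genes that were higher together, described below. FBLIM1, CLDN1, SEMA3A, DCTN6 and H4C4 are among them.

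Among the largest falls was GALNT15, an enzyme that starts mucin-type O-glycans, with 0.946 and 0.689 CPM in the knockdown and 9.13 and 9.76 CPM in the vector (log2 fold change -3.44, SE 0.223). GTSF1, known from small RNA silencing of transposons in mouse germ cells, had 1.56 and 1.35 CPM against 13.8 and 12.9 CPM in the vector (-3.12, SE 0.147). CD33, a sialic acid-binding receptor known from myeloid cells, had 1.31 and 1.44 CPM against 8.35 and 9.60 CPM in the vector (-2.63, SE 0.188). In these genes the lower group was the knockdown in every library, which their choice required. The long noncoding RNA gene MIAT fell by 2.32 (SE 0.137), the forkhead factor gene FOXS1 fell by 2.32 (SE 0.156), the matricellular genes CCN4 and SMOC1 fell by 2.21 (SE 0.144) and 1.97 (SE 0.162), and the NOTCH-modifying glycosyltransferase gene LFNG fell by 1.85 (SE 0.121) on the log2 scale. CGB8 and CT45A1, at -2.46 and -2.41, have near-identical copies and are uncertain. EdgeR adjusted p ran from 2.98e-08 to 6.33e-05 over the 15 largest rises and 15 largest falls. All 30 passed with ribosomal protein gene scaling, and 20 passed when the divergent library was in the fit.

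**Figure D2:**
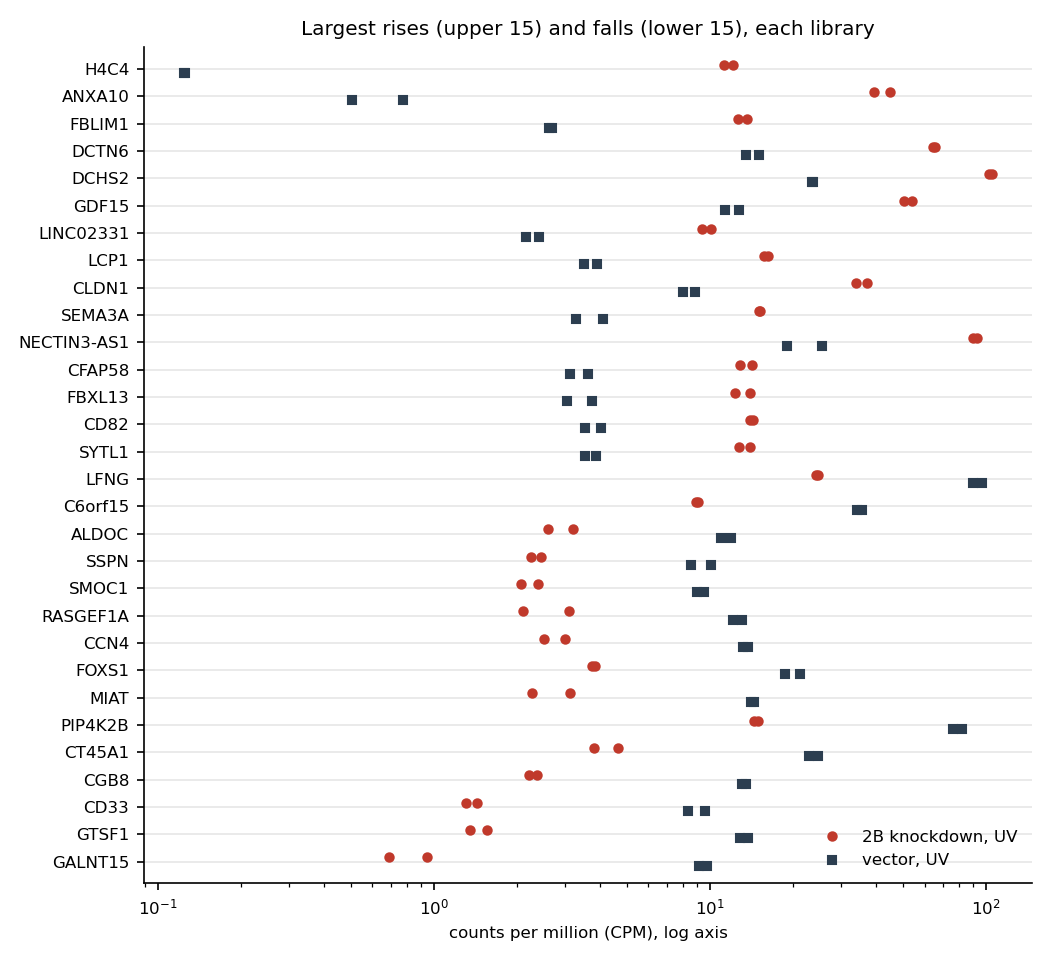
The 15 largest rises (upper) and 15 largest falls (lower) among called genes averaging at least 5 CPM whose groups do not overlap, with CPM of each library on a log axis (circles, 2B knockdown after UV; squares, vector after UV). The absence of overlap was a condition of the choice, and the gap is widest in H4C4 and ANXA10 among the rises, while GALNT15 stands at 0.946 and 0.689 CPM in the knockdown against 9.13 and 9.76 CPM in the vector.

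The p53 list holds genes that this factor activates after DNA damage. Over all protein-coding genes 14.3% were higher and 9.32% lower. Of 33 list members tested, 20 rose (60.6%), 1 fell (3.03%) and 12 did not pass. The list median log2 fold change was 0.43 against 0.00 over all genes. With ribosomal protein gene scaling, which moved the median of all genes to -0.08, 13 rose and 1 fell. MDM2, the ubiquitin ligase gene for p53, had 181 and 192 CPM in the knockdown and 117 and 91.5 CPM in the vector (0.92, SE 0.164). ZMAT3, an RNA-binding protein gene, had 118 and 127 CPM against 69.4 and 56.4 CPM in the vector (1.04, SE 0.101). GADD45A, a growth arrest and DNA damage gene, had 55.1 and 63.9 CPM against 31.3 and 25.2 CPM in the vector (1.15, SE 0.114). The cell cycle inhibitor gene CDKN1A had 232 and 226 CPM in the knockdown against 181 and 177 CPM in the vector (0.43, SE 0.0925; edgeR adjusted p = 0.00565). In all 4 genes both knockdown libraries exceeded both vector libraries. The list includes genes for apoptosis in both directions: BAX rose by 0.36 (SE 0.116) while BBC3, which encodes PUMA, fell by 0.51 (SE 0.157) on the log2 scale. Nucleotide excision repair genes, which remove UV lesions, had 9 of 35 higher (25.7%) and 1 lower (2.86%), with a median of 0.19. With ribosomal protein gene scaling 4 were higher and 1 lower. The helicase genes ERCC2 and ERCC3 of transcription factor TFIIH rose by 0.73 (SE 0.114) and 0.42 (SE 0.0789), the damage sensor gene DDB2 by 0.42 (SE 0.107), and the nuclease gene ERCC5 fell by 0.41 (SE 0.131).

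Against 14.3% higher and 9.32% lower over all protein-coding genes, 10 of 26 NF-kB and inflammatory genes tested rose (38.5%) and 2 fell (7.69%). The other 14 did not pass, and the list median was 0.44. With ribosomal protein gene scaling 5 rose and 1 fell, beside 1416 higher and 1541 lower of all 22597 genes tested. RELB, a subunit of NF-kB, had 11.2 and 12.4 CPM in the knockdown and 3.91 and 4.93 CPM in the vector (edgeR adjusted p = 2.85e-05). TNFAIP3, a ubiquitin-editing inhibitor of the pathway, had 9.01 and 8.48 CPM against 4.36 and 3.82 CPM in the vector (1.17, SE 0.132). BIRC3, an inhibitor of apoptosis, had 3.98 and 3.85 CPM against 1.58 and 1.14 CPM in the vector (1.59, SE 0.203). Each of these genes was higher in both knockdown libraries. The chemokine gene CXCL8 rose by 1.37 (SE 0.189), the subunit genes RELA and NFKB2 by 0.34 (SE 0.092) and 0.42 (SE 0.116). PTGS2, the inducible cyclooxygenase gene, went the other way, with 16.1 and 16.1 CPM in the knockdown and 36.0 and 34.4 CPM in the vector (-1.05, SE 0.163), as did the subunit gene REL (-0.40, SE 0.117).

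The promoters of TNFAIP3 and BIRC3, 2 of the 4 genes of this list that rose and hold the motif GGNNTTTCC (N is any base) on either strand, are shown with the motif in capitals. The motif is a short form of the site that NF-kB dimers bind. It lay in the 250 bases before the RefSeq start of 12 of 22 list members with a promoter sequence and of 5.73% of 13517 promoters of genes tested. Of those 12 members 4 rose, 1 fell and the others did not pass, beside 10 of 26 (38.5%) that rose and 2 that fell in the whole list. Whether the motif goes with a rise was not tested. Sequences are from RefSeq (GRCh38.p14), 5' to 3' in the direction of the gene. TNFAIP3 is at chr6:137867009-137867258 and BIRC3 at chr11:102317234-102317483, both on the plus strand.
TNFAIP3: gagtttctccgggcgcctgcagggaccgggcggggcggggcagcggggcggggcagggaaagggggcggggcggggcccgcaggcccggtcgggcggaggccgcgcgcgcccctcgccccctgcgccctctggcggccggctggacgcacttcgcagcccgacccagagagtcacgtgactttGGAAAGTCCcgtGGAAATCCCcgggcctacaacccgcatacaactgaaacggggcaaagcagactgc
BIRC3: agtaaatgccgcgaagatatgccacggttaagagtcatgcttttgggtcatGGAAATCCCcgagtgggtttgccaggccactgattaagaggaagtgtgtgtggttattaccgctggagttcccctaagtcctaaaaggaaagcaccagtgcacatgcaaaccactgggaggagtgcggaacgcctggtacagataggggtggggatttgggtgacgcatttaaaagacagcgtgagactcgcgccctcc
TNFAIP3 held 2 matches and BIRC3 held 1, and a match does not show binding.

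Of all protein-coding genes 14.3% were higher and 9.32% lower. Genes of the G2 phase and mitosis rose in 17 of 34 members (50%) and fell in 1 (2.94%), with a median of 0.33. Scaled to ribosomal protein genes, 9 rose and none fell, beside 1416 higher and 1541 lower of all 22597 genes tested. AURKA, a mitotic kinase gene, had 86.2 and 83.4 CPM in the knockdown and 52.0 and 48.6 CPM in the vector (log2 fold change 0.83, SE 0.0981). BUB1B, a spindle checkpoint gene, had 73.1 and 76.6 CPM against 50.4 and 49.0 CPM in the vector (0.67, SE 0.0791). CCNB1, which encodes cyclin B1, had 298 and 304 CPM against 230 and 229 CPM in the vector (0.47, SE 0.0678). The groups did not overlap in any of the 3. The motor gene KIF11 was the member that fell, by 0.45 (SE 0.113) on the log2 scale. In bulk RNA, more cells in this phase and more RNA per cell cannot be told apart. Genes of the G1/S step and DNA replication were mixed, with 9 of 40 higher (22.5%), 3 lower (7.5%) and a median of 0.07. Among them were CDK6 (1.07, SE 0.131) and the helicase gene MCM6 (-0.48, SE 0.0766). The motif TTTGAA, the core of the cell cycle homology region of many mitotic promoters, was present on either strand in 12 of 26 list members with a sequence and in 9.25% of all 13517 promoters. It is shown in capitals for BUB1B (GRCh38.p14 chr15:40160819-40161068, plus strand), where it lay close to the start.
BUB1B: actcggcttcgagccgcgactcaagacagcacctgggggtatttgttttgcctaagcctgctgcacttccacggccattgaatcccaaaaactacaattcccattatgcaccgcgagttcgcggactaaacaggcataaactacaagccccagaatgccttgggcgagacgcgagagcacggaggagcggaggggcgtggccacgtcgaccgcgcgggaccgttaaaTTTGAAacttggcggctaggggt
Of the 12 members with the motif, 7 rose and 1 fell, beside 17 of 34 (50%) that rose and 1 that fell in the whole list.

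Of 34 genes tested of cholesterol and fatty acid synthesis, known as targets of the SREBP factors, 15 fell (44.1%), none rose and 19 did not pass. The list median was -0.34, and over all protein-coding genes 9.32% were lower and 14.3% higher. The sterol regulatory element TCACNCCAC was found on either strand in the 250 bases before the start of 1 of 28 members with a sequence (SREBF2, 3.57%) and of 0.836% of all 13517 promoters. SCD, the stearoyl-CoA desaturase gene, had 523 and 537 CPM in the knockdown and 1161 and 1124 CPM in the vector (log2 fold change -1.03, SE 0.0729). SQLE, the squalene epoxidase gene, had 62.4 and 64.0 CPM against 118 and 109 CPM in the vector (-0.77, SE 0.0849). INSIG1, which retains SREBP in the endoplasmic reticulum, had 11 and 11.3 CPM against 25.3 and 25.1 CPM in the vector (-1.10, SE 0.123). Both knockdown libraries lay below both vector libraries in these genes. The desaturase gene FADS1 fell by 0.71 (SE 0.0763) and the factor genes SREBF1 and SREBF2 fell by 0.56 (SE 0.122) and 0.40 (SE 0.1).

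Immediate early genes, which stress and growth signals switch on within minutes, had 2 of 31 higher (6.45%) and 5 lower (16.1%), with a median of -0.14. Over all protein-coding genes 14.3% were higher and 9.32% lower. EGR1, a zinc finger factor gene, had 75.9 and 68.2 CPM in the knockdown and 129 and 136 CPM in the vector (log2 fold change -0.80, SE 0.157). EGR2 had 0.306 and 0.282 CPM against 1.38 and 1.39 CPM in the vector (-2.14, SE 0.332). MYC had 110 and 104 CPM against 151 and 166 CPM in the vector (-0.48, SE 0.115). The groups did not overlap in these genes. The AP-1 gene FOSB fell by 0.92 (SE 0.202) and the phosphatase gene DUSP2 fell by 0.77 (SE 0.183). ATF3 rose by 0.67 (SE 0.1) and DUSP1 by 0.37 (SE 0.0947), while FOS (-0.37, SE 0.13) and ARC (-0.21, SE 0.166) did not pass. Among genes that link nuclear phosphoinositides to stress kinases, 4 of 20 rose (20%) and 1 fell (5%). MAP2K3, a kinase that activates p38, had 62.0 and 59.8 CPM in the knockdown and 41.7 and 36.9 CPM in the vector (0.71, SE 0.136). ING2 had 3.11 and 3.26 CPM against 1.76 and 1.71 CPM in the vector (0.96, SE 0.192). MAP2K6, another p38 activator, fell by 0.87 (SE 0.229).

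Replication-dependent histone genes rose in 11 of 29 members tested (37.9%) and fell in 1 (3.45%), with a median of 0.46. They supply nucleosomes in S phase. H2AC6 had 122 and 121 CPM in the knockdown and 46.2 and 47.6 CPM in the vector (log2 fold change 1.45, SE 0.104), and the linker histone gene H1-2 had 271 and 281 CPM against 112 and 130 CPM in the vector (1.26, SE 0.134). These genes are near-identical copies, so single members are uncertain. Of the 29, 16 lie in a stretch of chromosome 6 whose genes were higher as a whole, and outside it 3 of 13 rose, 1 fell and the median was 0.37. Untreated, the stretch had a median of 0.51, while the histone list had a median of -0.28. Over all protein-coding genes 14.3% were higher and 9.32% lower. Protein components of the spliceosome rose in 9 of 40 (22.5%) and fell in none, with a median of 0.18, including PRPF8 (0.43, SE 0.094) and U2AF2 (0.38, SE 0.106). Splicing regulators fell in 5 of 39 (12.8%) and rose in 2 (5.13%), with the neuronal factor gene NOVA2 at -0.97 (SE 0.0807) and the kinase gene SRPK2 at 0.89 (SE 0.0878). Heat shock chaperone genes had 5 of 20 higher (25%) and none lower, among them HSPA8 (0.48, SE 0.0807). Among 78 genes for proteins of the cytosolic ribosome 1 passed in each direction, and of 13 mitochondrially encoded mRNAs none passed.

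**Figure D3:**
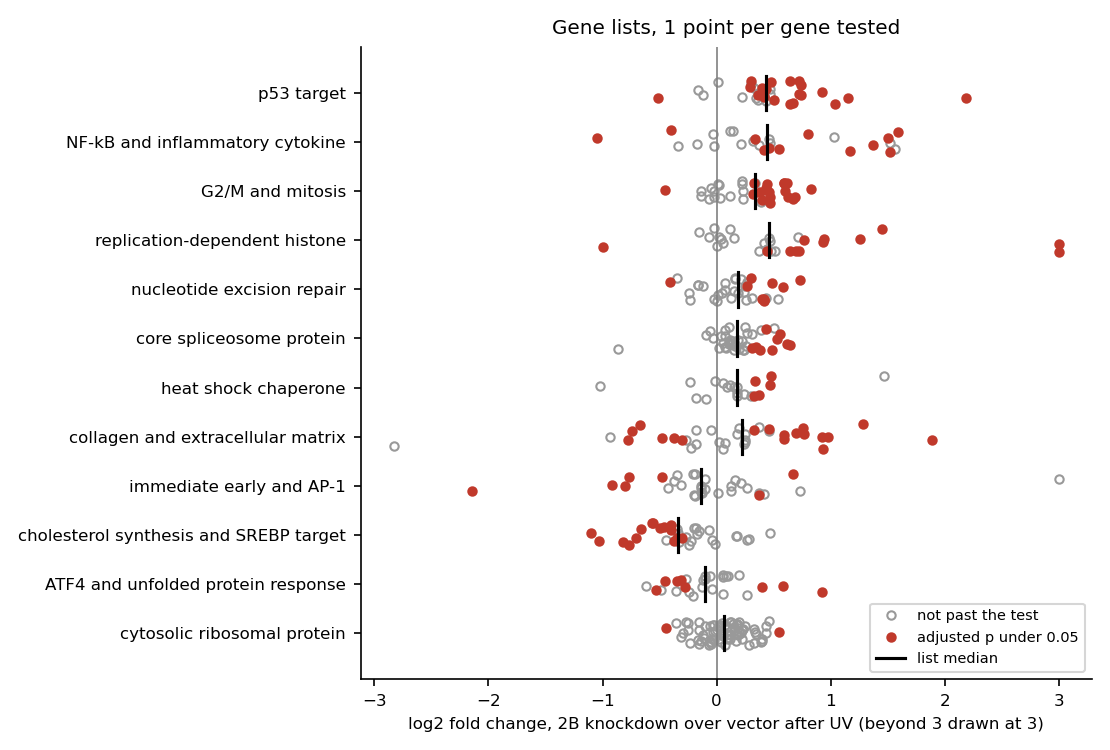
Log2 fold change of 2B knockdown over vector after UV for 12 gene lists, 1 point per gene tested, filled where the adjusted p is under 0.05, with the list median as a black bar. The p53 list is centred at 0.43 and the cholesterol list at -0.34, while all genes have a median of 0.00.

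Matrix and adhesion genes moved in both directions. Among genes of laminin chains, which build basement membranes, the list members that rose included LAMA5 at 318 and 301 CPM in the knockdown against 129 and 140 CPM in the vector (log2 fold change 1.28, SE 0.118), LAMA1 at 0.98 (SE 0.0756) and LAMB1 at 0.93 (SE 0.0788). The fibrillar collagen gene COL1A1 had 1452 and 1363 CPM in the knockdown and 2388 and 2351 CPM in the vector (-0.67, SE 0.129). Over the list of collagen and matrix genes 12 of 36 rose (33.3%) and 6 fell (16.7%), against 14.3% and 9.32% over all protein-coding genes. MMP2, a gelatinase gene, had 149 and 147 CPM in the knockdown against 370 and 377 CPM in the vector (-1.26, SE 0.0903). In MMP2, LAMA5 and COL1A1 the groups were apart. Of the matrix proteases and inhibitors 8 of 28 rose and 8 fell (28.6% each). Of integrin and focal adhesion genes 9 of 30 rose (30%) and 6 fell (20%). These included the collagen receptor gene ITGA2 at 1.13 (SE 0.114), ITGB3 at -1.66 (SE 0.169) and ITGB1 at -0.64 (SE 0.0962). Among receptor tyrosine kinases the ephrin receptor gene EPHA2 rose by 1.25 (SE 0.109) and the collagen receptor gene DDR2 fell by 1.42 (SE 0.0752). IGFBP7, a secreted binding protein for insulin-like growth factors, rose by 1.67 (SE 0.111) and IGFBP4 fell by 1.64 (SE 0.165).

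Lipid kinase and phosphatase genes outside the PIP4K and PIP5K families had 8 of 49 higher and 8 lower. INPP5D, a phosphatase that acts on phosphatidylinositol 3,4,5-trisphosphate, had 12.5 and 10.2 CPM in the knockdown and 3.13 and 3.51 CPM in the vector (log2 fold change 1.86, SE 0.151). PLCE1, a phospholipase that cleaves phosphatidylinositol 4,5-bisphosphate, had 80.6 and 83.1 CPM against 172 and 180 CPM in the vector (-1.03, SE 0.0848). The groups did not overlap in these genes. Lysosome and autophagy genes rose in 11 of 44 and fell in 5, with the transcription factor gene MITF at 1.59 (SE 0.0995) and the cathepsin genes CTSB at 0.55 (SE 0.0821) and CTSL at -0.74 (SE 0.111). Of the BCL2 family 5 of 19 rose and 2 fell, including the pro-apoptotic BAK1 (0.80, SE 0.127) and the anti-apoptotic BCL2L1 (0.84, SE 0.166). Of 21 NOTCH pathway genes 4 rose and 4 fell, of 33 WNT pathway genes 7 rose and 8 fell, and of 34 TGF-beta and BMP pathway genes 5 rose and 6 fell. Over all protein-coding genes 14.3% were higher and 9.32% lower, and the TGF-beta and BMP list stood at 14.7% and 17.6%.

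Of the remaining lists, oxidative phosphorylation genes had 8 of 60 higher and 2 lower, hnRNP genes 6 of 30 higher and 1 lower, and receptor tyrosine kinase and EGF family genes 10 of 35 higher and 4 lower. YAP/TAZ and TEAD targets had 6 of 24 higher and 4 lower, and genes of insulin-like growth factors and their binding proteins 3 of 10 higher and 1 lower. Falls outnumbered rises, at 5 against 3, in the ATF4 and unfolded protein response list (27 tested), the hypoxia and glycolysis list (37 tested) and the interferon list (33 tested), and at 5 against 2 in the FOXO and insulin list (24 tested). These are small counts: the hypoxia list had 8.11% higher and 13.5% lower, against 14.3% and 9.32% over all protein-coding genes. The oxidative phosphorylation list had 13.3% higher and 3.33% lower. Scaled to ribosomal protein genes, rises over all genes tested numbered 1416 instead of 2413, and falls 1541 instead of 1875. Rises then numbered 2 instead of 8 in the oxidative phosphorylation list and in the other phosphoinositide list. They numbered 6 instead of 11 in the lysosome list and 1 instead of 5 in the heat shock list. Under the same scaling they numbered 5 instead of 9 in the integrin list, 4 instead of 9 in the G1/S list, 4 instead of 7 in the WNT list, 3 instead of 5 in the BCL2 list, 3 instead of 6 in the YAP/TAZ list and 2 instead of 4 in the nuclear phosphoinositide list. Falls numbered 3 instead of 6 in the collagen list, 3 instead of 5 in the hypoxia list and 2 instead of 5 among splicing regulators.

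Markers of the cell type were read in both groups. Of 18 mesenchymal markers 3 were under 1 CPM in both groups, among them TWIST1 at 0, while VIM, CDH2 and ZEB1 were present. Of 16 tested 3 were higher (18.8%) and 4 lower (25%), with CDH2 and ZEB1 among the lower. Over all protein-coding genes 14.3% were higher and 9.32% lower. Of 13 osteoblast markers 5 were under 1 CPM in both groups, and of 9 tested 1 rose (11.1%) and 3 fell (33.3%). RUNX2, the bone lineage factor gene, fell by 1.08 (SE 0.0847), with 14.3 and 14.4 CPM in the knockdown and 32.6 and 31.7 CPM in the vector, while IBSP was at 0 in both groups. Epithelial markers had 3 of 15 tested higher and 3 lower (20% each). Their summed level was 731 and 686 CPM in the knockdown and 387 and 380 CPM in the vector, carried by the keratin genes KRT8 (1.58, SE 0.21) and KRT18 (0.66, SE 0.181). Of the 20 epithelial markers 9 were under 1 CPM in both groups, among them KRT19, ESRP1 and GRHL2, the last at 0 in the vector. Of 12 blood cell markers 11 were under 1 CPM in both groups, and the summed level of those tested was 11.9 and 12 CPM against 11.1 and 10.6 CPM in the vector. ITGAM was the one that rose, to 0.584 and 0.469 CPM against 0.176 and 0.126 CPM in the vector. Endothelial markers summed to 5.12 and 4.54 CPM in the knockdown and 6.97 and 8.02 CPM in the vector, and 0 of 6 passed. The part of these markers in the other results was not tested.

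Untreated cells of the same 2 lines showed whether the differences were present without UV. These libraries are separate from the UV libraries, although the untreated vector is a single library. Of the 4288 genes called after UV, 4005 (93.4%) had the same sign untreated, against 67.3% over all genes tested. Untreated, 1188 genes (5.26%) were higher and 1128 (4.99%) lower. Genes that passed with the same sign in both numbered 1757, which is 41.0% of the UV calls and 75.9% of the 2316 untreated calls (10.2% of genes tested), and 3 passed with opposite signs. Across the called genes the fold changes correlated at r = 0.765, and across all genes tested at 0.363, as a description over genes that are not independent. All 30 of the largest changes also passed untreated with the same sign, with GDF15 at 2.61, GALNT15 at -3.17 and ANXA10 at 6.42. The p53, NF-kB, G2/M and cholesterol lists had untreated medians of 0.43, 0.45, 0.32 and -0.37, close to their medians after UV.

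The difference between the knockdown effect after UV and untreated was tested in the same model. It passed for 0 of 22597 genes with edgeR (smallest adjusted p = 0.0613, with 1655 genes at an unadjusted p under 0.05), for 18 with DESeq2, and with edgeR for 229 without the filter on low counts and 116 with only the groups compared. The histone genes H2AC6 and H2BC11 were at that smallest adjusted p. H2BC11 had 29.6 and 31.7 CPM in the knockdown and 15.8 and 18 CPM in the vector after UV (log2 fold change 0.94, SE 0.118), and 200 and 200 CPM in the knockdown against 249 CPM in the vector untreated (-0.29), a difference of 1.22 (SE 0.176) that did not pass. The histone list as a whole had a median of -0.28 untreated. EGR1 was also flat untreated, with 42.8 and 44.3 CPM in the knockdown and 42.2 CPM in the vector, and its difference of -0.87 (SE 0.253) did not pass (edgeR adjusted p = 0.672). EGR2 differed by -2.31 (SE 0.569; edgeR adjusted p = 0.624).

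**Figure D4:**
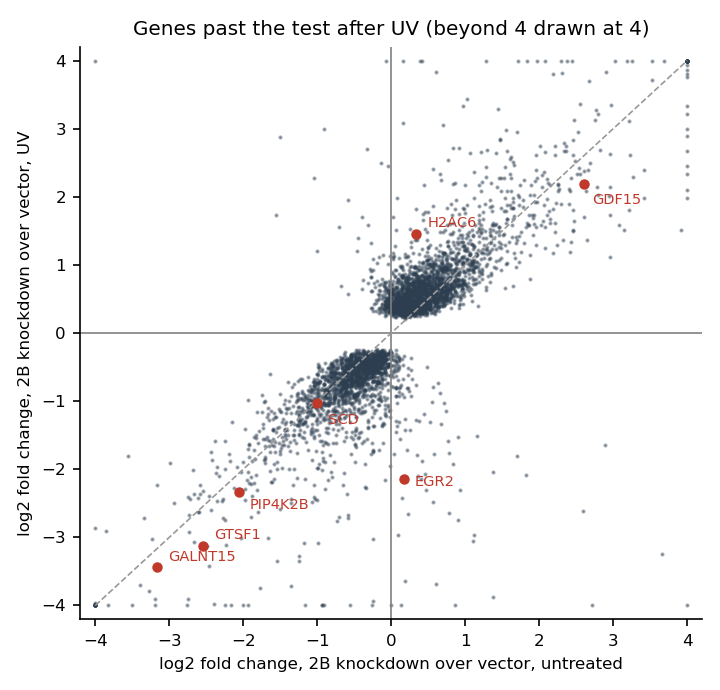
Log2 fold change of 2B knockdown over vector after UV (vertical) against untreated (horizontal) for the 4288 genes called after UV, with labelled genes in red, equality dashed and values beyond 4 drawn at 4. Most points lie in the 2 quadrants of equal sign (93.4%), while EGR2 and H2AC6 lie near 0 on the untreated axis.

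Changes were unevenly spread along the genome. The running median log2 fold change of 31 consecutive protein-coding genes passed 0.35 in size over at least 20 windows in a row in 23 stretches, 16 higher and 7 lower, which hold 1219 of 15314 protein-coding genes. This threshold was chosen after the values were seen, so the stretches are a description. The largest was chr7:81946444-107717809, 25.8 Mb with 187 genes, of which 115 were higher and 2 lower (median 0.73). SEMA3A, CDK6, SRPK2 and SMURF1 lie in it. In chr8:27284887-30572261, 18 of 23 genes were higher and none lower (median 1.44), and CLU, a secreted chaperone, had 1115 and 1028 CPM in the knockdown and 380 and 372 CPM in the vector (1.59, SE 0.17). At chr1:1311585-3900293, 28 of 44 genes were higher (median 0.69). A stretch on chr6:3224261-26600744 with the main histone cluster had 56 of 111 higher (median 0.47). Lower stretches included chr10:79841358-97446017, where 37 of 85 genes were lower and 2 higher (median -0.47), and chr3:136862208-152465780, with 34 of 61 lower (median -0.48). Of the genes named with their lists above, PLCE1 lies in this chr10 stretch. LAMA1, LAMA5, EPHA2, ING2 and BUB1B are among those in other higher stretches.

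In the untreated libraries, which played no part in defining them, all 23 stretches had a median of the same sign. The untreated medians were 0.65 on chromosome 7, 1.23 on chromosome 8 and -0.32 in the chromosome 10 stretch. The 2A knockdown and double knockdown, which share the vector libraries, had medians after UV of 0.36 and 0.09 in the chromosome 7 stretch and of 1.00 and 0.31 in the chromosome 8 stretch. Other stretches were high in all 3 lines. In chr15:34358618-44415758 the 2B, 2A and double medians were 0.49, 0.40 and 0.55, and in chr5:168661733-179838078 they were 0.52, 0.42 and 0.39. In chr20:61252426-63740398 they were 0.43, 0.17 and -0.30. DNA copy number was not measured here, and its part in these stretches was not tested. Protein-coding genes inside them were called in 55.9% of cases and genes outside in 20.8%. The stretches were defined on these same fold changes, so a higher share inside was built into the definition. Outside the stretches 1840 genes were higher and 1700 lower, so 3540 of the 4288 calls lie elsewhere. The p53, NF-kB, G2/M and cholesterol lists had medians of 0.45, 0.44, 0.33 and -0.34 over their members outside the stretches. Other lists held more of their rises inside. Outside, rises numbered 1 instead of 4 in the NOTCH list and 2 instead of 5 in the TGF-beta and BMP list. They numbered 5 instead of 8 in the oxidative phosphorylation list, 6 instead of 9 in the spliceosome list and 9 instead of 12 in the collagen list.

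**Figure D5:**
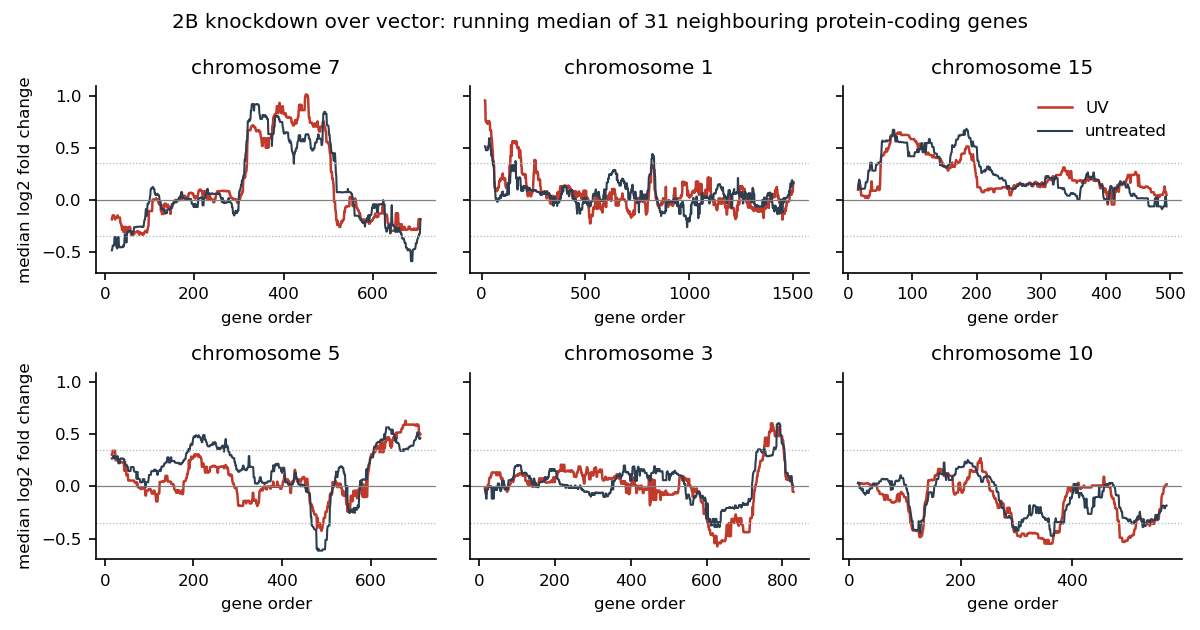
Running median log2 fold change, 2B knockdown over vector, of 31 neighbouring protein-coding genes in gene order on 6 chromosomes (red, UV; dark, untreated; dotted lines, 0.35 in size). Both curves rise together over the chromosome 7 stretch, with medians of 0.73 after UV and 0.65 untreated, and both dip below 0 over parts of chromosome 10.

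Set directly against the 2A knockdown after UV, the 2B knockdown had 1764 genes higher (7.81%) and 1492 lower (6.60%), together 14.4% of genes tested. The split turned to 471 higher and 3707 lower with ribosomal protein gene scaling, under which the median of all genes was -0.31, against -0.03 without it, so the balance of directions depends on the scaling. Without 2A replicate 1 or 2 the count was 5142 or 4894, without 2B replicate 1 or 2 it was 862 or 1429, and with only these 2 groups it was 7. GTSF1 had 1.56 and 1.35 CPM in the 2B knockdown, against 37.4 and 33.9 CPM in the 2A knockdown (log2 difference -4.49, SE 0.146). NLRP2, an inflammasome-family gene, had 0.528 and 0.689 CPM against 9.78 and 9.73 CPM in the 2A knockdown (-3.89, SE 0.158). LAMA3, a laminin chain gene, had 2.50 and 2.10 CPM against 15.4 and 14.7 CPM in the 2A knockdown (-2.59, SE 0.164). In these 3 genes the 2 lines were apart in every library, which their choice required. GDF15 was higher in the 2B line by 1.35 (edgeR adjusted p = 0.00035), RUNX2 and SQLE were lower, at -0.82 (edgeR adjusted p = 0.00014) and -0.59 (edgeR adjusted p = 0.00111). Against vector, the 2A knockdown had 20.3% of genes tested called, 11.3% higher and 9.01% lower.

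The double knockdown, which also carries the PIP4K2B hairpin, was set against the 2B knockdown after UV. In it 1953 genes (8.64%) were higher and 2053 (9.09%) lower, together 17.7% of genes tested, a split of 2335 and 944 with ribosomal protein gene scaling. Against vector, the double knockdown had 15.4% of genes tested called, 8.50% higher and 6.86% lower. CDKN2B, a cell cycle inhibitor gene, had 11.9 and 11.9 CPM in the double knockdown and 0.25 and 0.25 CPM in the 2B knockdown (log2 difference 5.52, SE 0.194), beside 4.69 and 5.62 CPM in the vector. ANXA10 had 4.21 and 4.17 CPM in the double knockdown and 39.5 and 44.8 CPM in the 2B knockdown (-3.36, SE 0.248). SEMA3A had 2.26 and 2.21 CPM in the double knockdown and 15.1 and 15.2 CPM in the 2B knockdown (-2.79, SE 0.15). Each gene differed in every library, as the choice of these genes required. Medians over vector after UV in the p53 list were 0.43 in the 2B, 0.27 in the 2A and 0.38 in the double knockdown. The NF-kB list had medians of 0.44, 0.39 and -0.10, the G2/M list 0.33, 0.40 and -0.07 and the cholesterol list -0.34, -0.30 and -0.01 in the 2B, 2A and double knockdown. These comparisons share the vector libraries.

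The tables also give the length of each gene weighted by its isoforms, which moves when isoforms of different length change in share. Of 11546 genes with enough counts, 0 passed in limma (smallest adjusted p = 0.149, with 723 at an unadjusted p under 0.05, of which 232 were longer and 491 shorter in the knockdown). Only without vector replicate 1 did any pass, and then 2. PIP4K2A had weighted lengths of 2914 and 2939 bases in the knockdown and 3415 and 3552 bases in the vector, a log2 difference of -0.25 that did not pass. Its level per length was 8.14 TPM in the knockdown and 8.06 TPM in the vector.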

How the data were processed

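RNA-seq of U2OS cells was analysed from the authors' gene tables. Per the file headers, the deposited values are RSEM expected counts, TPM (transcripts scaled by gene length and library) and a length in bases (another measure), which averages a gene's isoforms by abundance. GRCh38 is the build, and STAR, RSEM and SAMtools are the tools, per the submitters' processing notes. Neither the annotation release nor the strand setting is stated there, so antisense and overlapping genes are uncertain. Of 60666 genes, 60437 had a symbol and 58420 a position and type in GENCODE 29.

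After rounding, expected counts went into edgeR 4.0.16 (R 4.3.3): filterByExpr (minimum count 10), TMM, a quasi-likelihood fit with 1 term per group over 15 libraries, and Benjamini-Hochberg adjusted p under 0.05 over all genes tested. Per-group n was 2. The SE is the log2 fold change divided by the root of F. The biological coefficient of variation was 11.3%. CPM is the count over the library total, without TMM factors, whereas fold changes carry them. Lengths were tested on the log2 scale with limma 3.58.1 for genes averaging 100 counts, without libraries under 10. Scripts were tested on simulated data. Tables used Python 3.11.15, pandas 2.3.3 and numpy 2.4.6, and figures matplotlib 3.10.9.

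Named genes were the PIP4K genes, the 15 largest rises and 15 largest falls among called genes averaging at least 5 CPM without overlap (5 and 5 in other comparisons), and up to 4 called members per list, or the 2 most abundant where none passed. Other members of the 38 lists, promoter genes and genes in stretches were named after their values were seen. The comparison, members and lists were chosen with earlier results of these data known. Values of some list members are not reported here. Alternatives were other libraries, scalings and filters, DESeq2 1.42.0, a replicate block and leaving out each library.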

Additional observations from a re-analysis of the deposited data

Results flagged for a closer look

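GTSF1 and SEMA3A, both among the largest changes in the 2B knockdown, moved against vector in opposite directions in another line, and the direct difference passed. GTSF1 differed by -4.49 on the log2 scale between the 2B and the 2A knockdown after UV (SE 0.146; edgeR adjusted p = 7.63e-09), as it was lower than vector in the 2B knockdown (-3.12) and higher than vector in the 2A knockdown (1.38). Between the double knockdown, at 46.3 and 44.1 CPM, and the 2B knockdown, at 1.56 and 1.35 CPM, it differed by 4.92 (SE 0.147; edgeR adjusted p = 1.3e-09). SEMA3A differed by -2.79 between the double and the 2B knockdown (SE 0.15; edgeR adjusted p = 1.75e-07), being lower than vector in the double knockdown (-0.68) and higher than vector in the 2B knockdown (2.11). These lines share the vector libraries.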

How the results depend on the processing

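For the 2B knockdown against vector after UV, the count of 4288 genes came to 127 over all 16 libraries and 7151 with only the groups compared, and ranged from 2056 to 2448 without 1 library. The difference between UV and untreated effects, 0 genes, came to 229 with no filter on low counts, 18 with DESeq2 and 116 with only the groups compared. For 2B against 2A knockdown, 3256 genes became 11 over all 16 libraries, 7 with only the groups compared, and 862 to 5142 without 1 library. For double against 2B knockdown, 4006 genes became 150 over all 16 libraries, 8340 with only the groups compared, and 2106 to 2266 without 1 library. Lengths gave 0 to 2 genes without 1 library. The cause of these shifts was not tested. With the replicate block the counts were 4079, 0, 3014, 3792 and 0 in the same order. Deviations of same-numbered 2B and vector UV libraries correlated at -0.0947 over 12568 genes. With 2 libraries per group this cannot show whether same-numbered libraries belong together. Of 167 named genes none reversed, and 131 lost or lacked a call over all 16 libraries against 20 with ribosomal protein gene scaling. The number of libraries, 2 per group, limits small changes. Restricting calls to genes outside the stretches was chosen after seeing the data.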
